A study of Mus musculus with 36 samples.

Results

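The 6 genes described here are Txnip, the antisense transcript gene Gm15441 that overlaps it, and the alpha-arrestin genes Arrdc1, Arrdc2, Arrdc3 and Arrdc4. They are the rows of the count tables with those symbols, 6 of 51912 genes. They were chosen by measured values of these libraries: Txnip differed in opposite directions between genotypes in soleus and TA, and Arrdc2 was high in mutant soleus. The WT levels were the baselines of that choice. Every group difference of Txnip, Gm15441 and Arrdc2, and the genotype differences of the others, are therefore given as descriptions without a test. Tests are given for Arrdc1, Arrdc3 and Arrdc4 in WT soleus against WT TA, since no value of theirs entered the choice, and for the covariation between libraries within a group. RNA-seq was done on whole TA (tibialis anterior), a hindlimb muscle of mostly fast fibers, and soleus, a hindlimb muscle rich in slow fibers. The mice were 3-month-old C57BL/6 males, and each muscle of each genotype, WT or ∆Ig3-MuSK, had 9 libraries. The ∆Ig3-MuSK mice carry a CRISPR-Cas9 deletion of exons 6 and 7 of Musk in the germline, and so in every cell, which removes the Ig3 domain of the MuSK receptor. WT mice are of the same C57BL/6 background, and no treatment is given for either genotype. The libraries of a group carry different label numbers. The labels do not say that each came from a separate animal. The paper's legend gives 9 muscles per genotype, with a single muscle from each animal. The p-values measure the spread between these libraries.

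The alpha-arrestins are adaptor proteins with an arrestin fold. Most carry short PPxY motifs that bind the WW domains of NEDD4-family ubiquitin ligases, and so they bring a ligase to receptors and transporters at the membrane, which are then taken up into the cell. Txnip (thioredoxin-interacting protein) also binds thioredoxin, and in muscle and fat it is known for lowering glucose uptake through the glucose transporters Slc2a1 and Slc2a4. Its gene is switched on by glucose through MondoA (Mlxip) or ChREBP (Mlxipl) together with Mlx, which bind paired E-box sequences called carbohydrate response elements. Arrdc4 is the closest relative of Txnip and responds to the same factors. Arrdc3 is known for acting on beta-adrenergic receptors, Arrdc1 for the budding of extracellular vesicles from the plasma membrane, and Arrdc2 for its response to glucocorticoids in muscle. Gm15441 is a noncoding RNA, known in liver as a target of PPAR-alpha.

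In the GENCODE annotation of GRCm38, Txnip (ENSMUSG00000038393) lies on the plus strand of chr3:96557957-96561883. Gm15441 (ENSMUSG00000074398) spans it on the minus strand at chr3:96555765-96566801. The exons of both genes share 606 bases, which are 19.4% of the 3123 exon bases of Txnip and 36.2% of the 1676 exon bases of Gm15441. The shared bases lie in the first 440 bases of Txnip, which hold its start codon, and in an exon stretch that codes for protein further on. The libraries hold no strand information, so a read from these bases cannot be assigned to either gene. Arrdc1 (chr2:24925352-24935252, minus strand), Arrdc2 (chr8:70835129-70839720, minus), Arrdc3 (chr13:80883384-80896042, plus) and Arrdc4 (chr7:68736995-68749241, minus) share no exon base with another gene.

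The sequences just before the start sites of Txnip, Arrdc4 and Arrdc2 are shown because the first pair share an upstream regulator and because Arrdc2 varied most among the 6 genes. Each run is the 250 bases before the RefSeq start in GRCm38.p6, read 5′ to 3′ on the gene's own strand. The windows are chr3:96557707-96557956 for Txnip, chr7:68749239-68749488 for Arrdc4 and chr8:70839721-70839970 for Arrdc2. Capitals mark matches to a paired E-box motif (the half-site CACGNG, 5 bases of any kind, and CACGNG again), to the E-box CACGTG and to the forkhead motif GTAAACA, each searched on both strands.
Txnip: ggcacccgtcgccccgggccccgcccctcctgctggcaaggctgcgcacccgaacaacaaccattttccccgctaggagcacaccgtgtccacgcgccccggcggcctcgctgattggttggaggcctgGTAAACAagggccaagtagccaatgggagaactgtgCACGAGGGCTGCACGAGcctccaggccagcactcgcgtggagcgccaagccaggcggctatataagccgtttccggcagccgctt
Arrdc4: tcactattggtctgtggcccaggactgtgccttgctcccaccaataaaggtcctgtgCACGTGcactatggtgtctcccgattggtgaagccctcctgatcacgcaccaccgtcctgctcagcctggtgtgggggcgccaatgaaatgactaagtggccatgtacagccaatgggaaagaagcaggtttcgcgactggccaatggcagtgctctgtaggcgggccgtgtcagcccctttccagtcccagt
Arrdc2: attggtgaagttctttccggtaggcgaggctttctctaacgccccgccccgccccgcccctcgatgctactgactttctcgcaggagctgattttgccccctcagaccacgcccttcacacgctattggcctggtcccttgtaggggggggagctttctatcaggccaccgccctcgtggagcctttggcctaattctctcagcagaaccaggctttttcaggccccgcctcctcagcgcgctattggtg
The Txnip window held the paired motif as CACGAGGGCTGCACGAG, 85 to 69 bases before the start. Of 32851 mouse promoter windows of the same length, 15 (0.0457%) held this motif. The same window held GTAAACA at 121 to 115 bases before the start, a motif found in 3.17% of windows. It also held a match to a palindrome of steroid receptors, the half-sites GNACA and TGTNC 3 bases apart, at 172 to 160 bases, found in 0.387% of windows. The whole Txnip window lies within an exon of Gm15441, which runs from position -671 to 440 relative to the Txnip start. Arrdc4 held CACGTG at 193 to 188 bases before the start, as did 6.02% of windows. It held 6 copies of CCAAT in either direction, a motif found at least once in 33.8% of windows. The Arrdc2 window held 3 copies of CCAAT and no match to the other 4 motifs. Windows were found for 5 of the 6 genes, Gm15441 being the exception. A match describes these letters only.

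Total counts per library ranged from 49287472 to 75091437 in TA of WT mice and from 56584208 to 78660422 in TA of mutants. The soleus libraries held 43492062 to 50051435 counts in WT and 46397769 to 60426556 in mutants. Levels are given as CPM, the counts of a gene scaled to a common library size with TMM factors over the 36 libraries. The labels of muscle matched the marker genes: the summed CPM of 8 slow-fiber genes was between 78.2 and 208 in TA and between 19641 and 28345 in soleus. Musk itself was higher in soleus than in TA and lower in the mutants, with means of 4.25 CPM (WT) and 3.08 CPM (∆Ig3-MuSK) in TA and of 15.2 and 11.3 CPM in soleus. That count is over the whole gene, and the deleted exons are a part of it. In whole muscle, fewer cells of a type and less RNA per cell cannot be told apart.

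The 6 genes covered a wide span of levels. Per kilobase of exon, Txnip was the highest in every group, with means of 161 CPM per kb (WT) and 140.2 (∆Ig3-MuSK) in TA and of 116 and 181 in soleus. Gm15441 came next, with means between 71.1 and 110.4 CPM per kb. Divided by the exon bases that the other gene does not share, the means were 111 to 173 CPM per kb for Gm15441 and 144 to 225 for Txnip, with Txnip still the higher in every group. The ranges of Txnip and Gm15441 overlapped in every group except WT TA, where Txnip lay between 144 and 186 CPM per kb and Gm15441 between 77.6 and 96.5. Among the others the order of Arrdc2 and Arrdc3 differed between groups. In WT TA Arrdc2 (mean 11.98 CPM per kb) stood above Arrdc3 (3.98), although their ranges overlapped, and in ∆Ig3-MuSK TA its lowest library, at 5.42 CPM per kb, was above the highest of Arrdc3, at 4.75. In WT soleus Arrdc3 (4.21) stood above Arrdc2 (2.36), again with overlapping ranges. Arrdc4 (means 1.36 to 1.93 CPM per kb) and Arrdc1 (0.888 to 1.81) were the lowest of the 6 in every group by their means. Arrdc5, a family relative that is not among the 6, had means of 0.275 to 0.348 CPM.

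**Figure D1:**
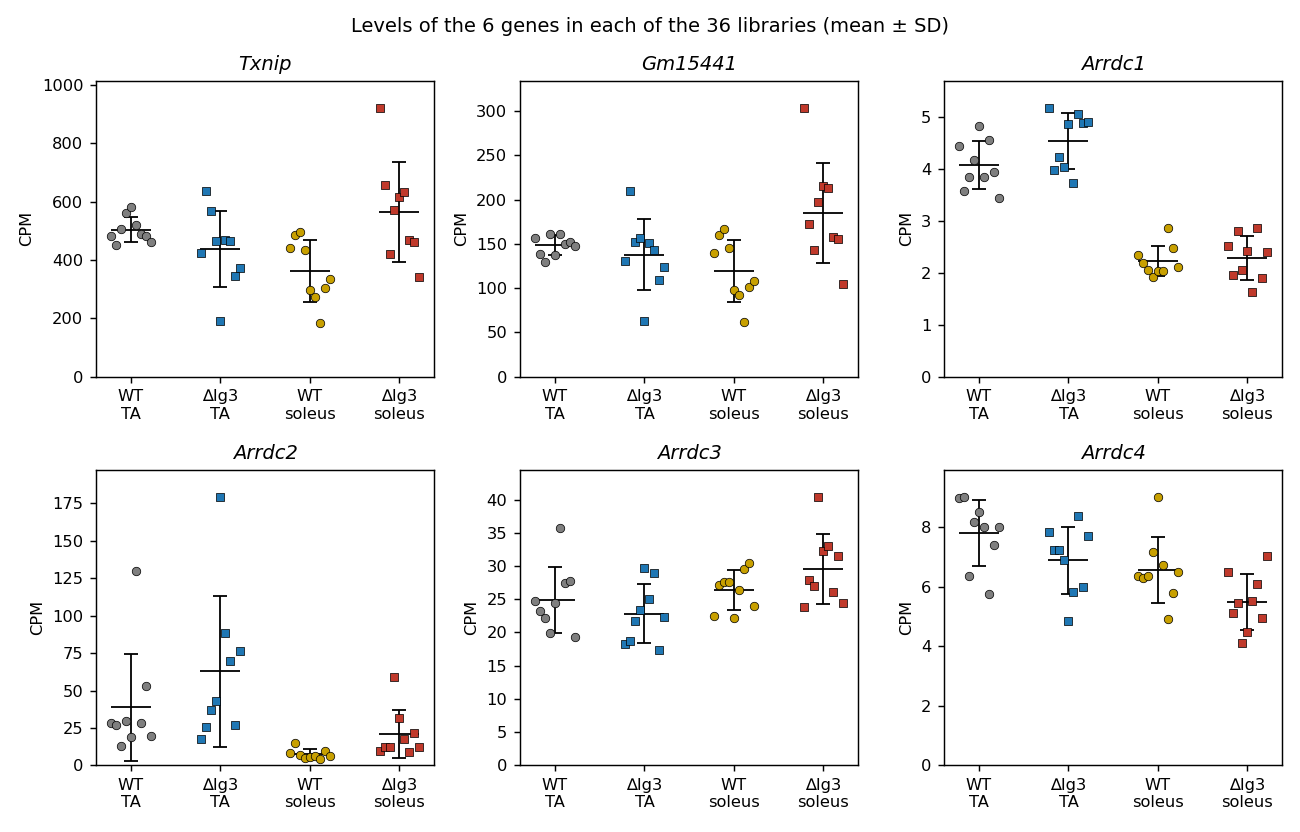
CPM of each of the 6 genes on a linear axis from 0, with a point for each of the 36 libraries and the mean ± SD of 9 libraries per group in black. Txnip in WT TA sits between 451 and 581 CPM while the other groups spread far more widely, and Arrdc2 has a far-out library in WT TA (129.7 CPM), ∆Ig3-MuSK TA (179.6) and ∆Ig3-MuSK soleus (59.1).

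Between the muscles of WT mice, Txnip, Gm15441, Arrdc1 and Arrdc2 were lower in soleus than in TA. A gene was called at a Benjamini-Hochberg adjusted p under 0.05 and at least a 1.2-fold change in edgeR's quasi-likelihood test. Of 19437 genes tested, 57.7% were called, and 27.6% were called as lower in soleus. Of Arrdc1, Arrdc3 and Arrdc4, 1 was called. The fold changes of Txnip, Gm15441 and Arrdc2 are given with their standard errors and no p, because their WT levels are part of the pattern they were chosen for.

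Txnip ranged from 451 to 581 CPM in WT TA (median 488) and from 185 to 497.5 CPM in WT soleus (median 336). Of the 9 soleus libraries, 7 were below the lowest TA library and the groups overlapped in the other 2. The log2 fold change was -0.48 (SE 0.14). Gm15441 ranged from 130.03 to 162 CPM in WT TA (median 150.02) and from 61.7 to 167 in WT soleus (median 109). Its fold change was smaller, at -0.32 on the log2 scale (SE 0.14).

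Arrdc2 had the largest difference between the muscles among the 6. It ranged from 13.0 to 129.7 CPM in WT TA (median 28.3) and from 4.46 to 15.1 CPM in WT soleus (median 6.60). Of the soleus libraries, 8 of 9 were below every TA library. The log2 fold change was -2.35 (SE 0.37), and leaving out any library gave between -2.53 and -1.85. Arrdc1 ranged from 3.43 to 4.83 CPM in WT TA (median 3.95) and from 1.93 to 2.86 in WT soleus (median 2.12), so the groups did not overlap, as in 29.6% of the genes tested. Its log2 fold change was -0.87 (SE 0.09, adjusted p = 2.57e-08, edgeR). Arrdc4 was 7.81 ± 1.12 CPM in WT TA and 6.58 ± 1.11 in WT soleus (SD, n = 9 each). Its difference of -0.25 on the log2 scale (SE 0.10, adjusted p = 0.0296, edgeR) was under the 1.2-fold limit. Arrdc3, at 24.9 ± 4.96 CPM in WT TA and 26.4 ± 2.94 in WT soleus (SD, n = 9 each), gave 0.08 on the log2 scale (SE 0.10, adjusted p = 0.494, edgeR), a difference smaller than the spread between libraries.

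In the mutants the order of the muscles was turned round for Txnip and Gm15441. These too are descriptions. The log2 fold change of ∆Ig3-MuSK soleus over ∆Ig3-MuSK TA was 0.37 (SE 0.19) for Txnip and 0.42 (SE 0.19) for Gm15441. It was -0.99 (SE 0.11) for Arrdc1 and -1.60 (SE 0.43) for Arrdc2, the direction seen in WT. Arrdc3 gave 0.37 (SE 0.11) and Arrdc4 -0.34 (SE 0.11).

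**Figure D2:**
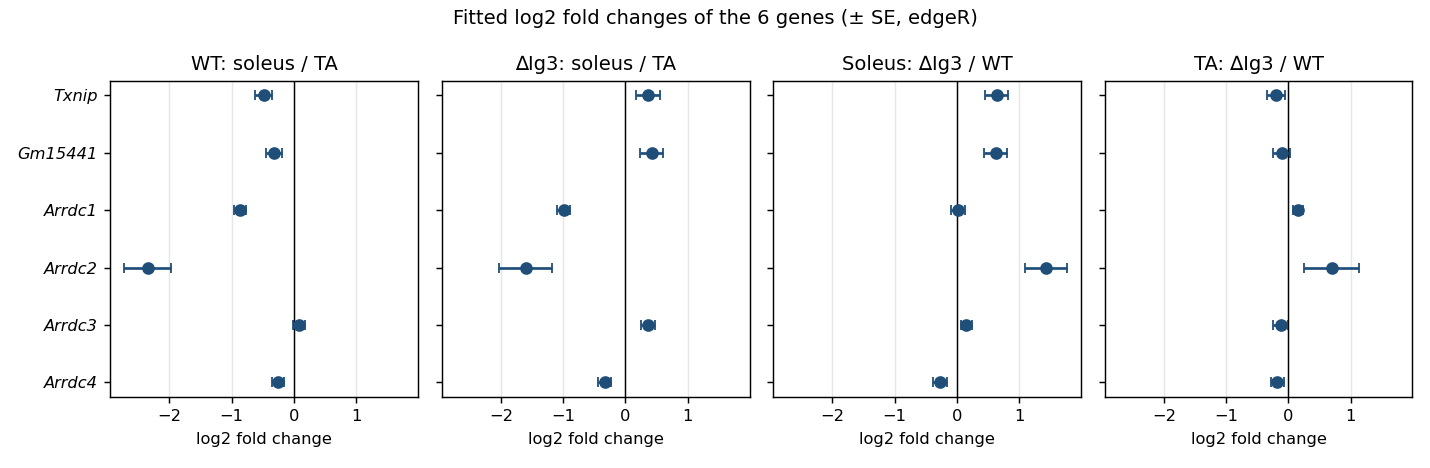
Log2 fold changes of the 6 genes (points) with standard errors (bars) from edgeR in 4 comparisons of 9 against 9 libraries, on a shared linear axis. Txnip and Gm15441 sit below 0 in WT soleus against TA (-0.48 and -0.32) and above 0 in the mutants (0.37 and 0.42), and Arrdc2 has the widest bars in all 4 panels.

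Txnip had a mean of 362 ± 107 CPM in WT soleus and 566 ± 171 CPM in ∆Ig3-MuSK soleus (SD, n = 9 each). The mutant soleus libraries ranged from 341 to 922 CPM with a median of 573. Of these, 5 of 9 were above the highest WT soleus library and 9 of 9 were above the WT median. The fitted log2 difference was 0.64 (SE 0.18). In TA the means were 504 ± 43.6 CPM in WT and 438 ± 129 CPM in ∆Ig3-MuSK (SD, n = 9 each), a log2 difference of -0.20 (SE 0.15). The mutant TA libraries ranged from 190.4 to 638 CPM (median 466), so that 4 of 9 were below the lowest WT library and 1 was above the highest. The soleus difference minus the TA difference was 0.85 on the log2 scale (SE 0.25). It lay between 0.73 and 0.93 whichever of the 36 libraries was left out. The groups of Txnip differed in spread as well as in mean. The coefficient of variation was 8.64% in WT TA, against 29.5% in mutant TA, 29.5% in WT soleus and 30.3% in mutant soleus.

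Gm15441 followed Txnip in each of these differences. It was 119 ± 35.2 CPM in WT soleus and 185 ± 56.9 in ∆Ig3-MuSK soleus (SD, n = 9 each), a log2 difference of 0.63 (SE 0.19). The WT and mutant TA means were 148 ± 11.1 and 138 ± 39.8 CPM (SD, n = 9 each), a log2 difference of -0.11 (SE 0.14). Gm15441 made up 24.8% ± 0.360 of the summed Txnip and Gm15441 counts in WT soleus and 22.8% ± 1.83 in WT TA (SD, n = 9 each). The shares thus differed by 2.00 percentage points, given without a test because the WT counts of Txnip enter it. In the mutants the share was 24.6% ± 1.58 in soleus and 24.0% ± 1.26 in TA (SD, n = 9 each).

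Arrdc2 was the member with the largest genotype difference. In soleus it ranged from 4.46 to 15.1 CPM in WT (median 6.60) and from 9.26 to 59.1 CPM in ∆Ig3-MuSK (median 12.6). Every mutant soleus library was above the WT mean and 4 of 9 were above the highest WT library. The log2 difference was 1.43 (SE 0.34), and leaving out a library gave between 1.05 (without ∆Ig3-MuSK soleus replicate 4) and 1.62 (without WT soleus replicate 2). In edgeR's fit of the soleus groups without a block it was the only member past the limits for a call, which 0.952% of 19439 genes passed. The choice of the genes used that comparison, so this is a description, and it depended on the fit. Arrdc2 was past the limits in 5 of the 18 fits with a library left out. Txnip was past them with DESeq2, with a replicate block and in the single fit over 36 libraries, and Gm15441 in the single fit. Arrdc2 was not past them with a replicate block or in that single fit. In TA Arrdc2 ranged from 13.0 to 129.7 CPM in WT (median 28.3) and from 17.5 to 179.6 CPM in ∆Ig3-MuSK (median 43.1). These groups overlapped almost fully, and the log2 difference was 0.70 (SE 0.44), with 0.31 without ∆Ig3-MuSK TA replicate 5 and 1.196 without WT TA replicate 6. In TA 0.0149% of 20075 genes were called, none of them a member.

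Arrdc3, Arrdc4 and Arrdc1 differed less between genotypes. Arrdc3 gave 0.15 (SE 0.09) in soleus and -0.13 (SE 0.12) in TA on the log2 scale, with means of 29.6 ± 5.28 CPM in ∆Ig3-MuSK soleus and 22.8 ± 4.46 in ∆Ig3-MuSK TA (SD, n = 9 each). Arrdc4 gave -0.27 (SE 0.11) in soleus and -0.18 (SE 0.10) in TA, with mutant means of 5.48 ± 0.940 and 6.89 ± 1.13 CPM (SD, n = 9 each). Arrdc1 gave 0.02 (SE 0.11) in soleus and 0.16 (SE 0.08) in TA, with mutant means of 2.28 ± 0.423 and 4.54 ± 0.542 CPM (SD, n = 9 each). Txnip and Arrdc4, the pair that share an upstream regulator, thus differed in sign in the soleus and were both below 0 in TA. The part of that regulator in these differences was not tested.

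The genes also differed in how much they varied among libraries of the same group. The pooled within-group SD of log2 CPM was 0.88 for Arrdc2, which was above that of 99.1% of 20841 genes, whose median was 0.21. It was 0.41 for Txnip (above 80.5% of genes) and 0.40 for Gm15441 (above 79.7%). Arrdc3, Arrdc4 and Arrdc1 were close to the median, at 0.24, 0.24 and 0.20. Each pair with Txnip was tested in each group by correlating log2 CPM over the 9 libraries, 20 relations in all, with exact permutation p-values adjusted over the 20.

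Txnip and Gm15441 rose and fell together in 3 of the 4 groups. Pearson's r was 0.998 in WT soleus (exact permutation test, adjusted p = 0.000110, n = 9), 0.980 in ∆Ig3-MuSK TA (exact permutation test, adjusted p = 0.000276, n = 9) and 0.956 in ∆Ig3-MuSK soleus (exact permutation test, adjusted p = 0.00360, n = 9). Spearman's rho was 0.983, 0.900 and 0.883 (exact permutation tests, adjusted p = 0.000992, 0.0203 and 0.0205). Without the 2 libraries farthest from the median of Txnip, r was 0.996, 0.890 and 0.836. In WT TA, where Txnip varied least, r was 0.11 and rho 0.13 (exact permutation tests, raw p = 0.773 and 0.744, n = 9). Reads on the exon bases that both genes share cannot be assigned, and their part in these correlations was not tested. None of the other 16 relations with Txnip passed after adjustment. The lowest adjusted p among those 16 was 0.223, for Arrdc4 in ∆Ig3-MuSK TA.

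**Figure D3:**
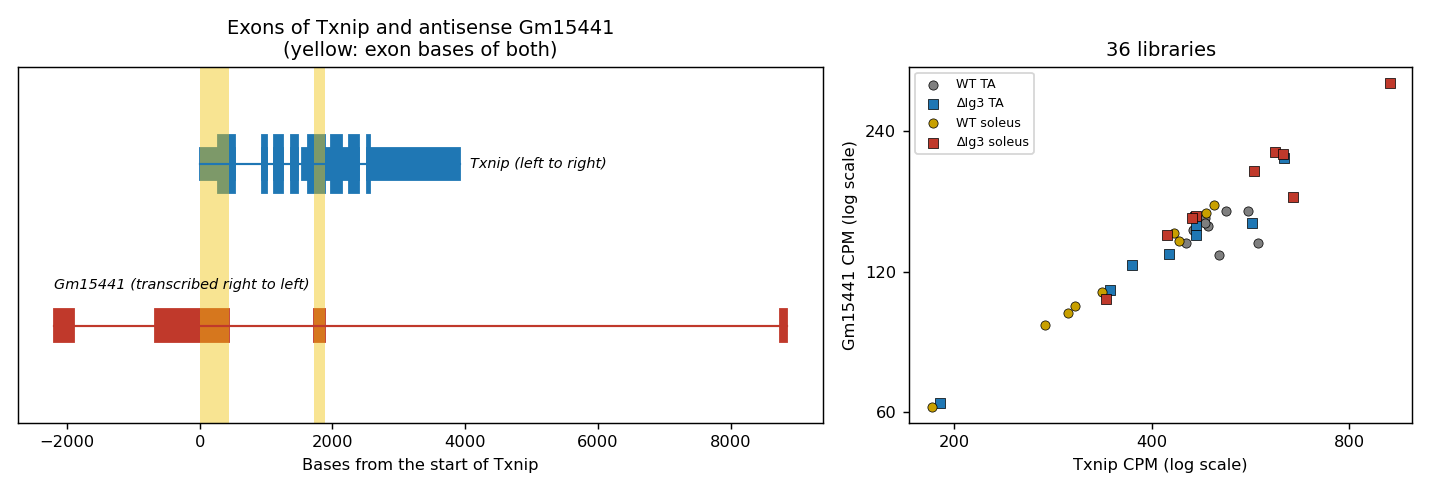
Left, exons (thin boxes) and protein-coding parts (tall boxes) of Txnip and Gm15441, placed by bases from the Txnip start, with the 606 exon bases of both in yellow. Right, Gm15441 CPM against Txnip CPM in the 36 libraries on log axes, where the libraries lie along a line except in WT TA (r = 0.11).

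All 15 pairs of the 6 genes were then correlated in each group, 60 relations, a step added after the values were seen. Arrdc2 and Arrdc3 went together in both mutant groups, with r = 0.886 in ∆Ig3-MuSK TA (exact permutation test, adjusted p = 0.0132, n = 9) and r = 0.927 in ∆Ig3-MuSK soleus (exact permutation test, adjusted p = 0.00860, n = 9). Spearman's rho was 0.867 and 0.900 (exact permutation tests, adjusted p = 0.0338 and 0.0304), and r without the 2 libraries farthest from the median of Arrdc2 was 0.814 and 0.855. In WT TA r was 0.805 and rho 0.633, which did not pass (exact permutation tests, adjusted p = 0.0791 and 0.380, n = 9). There r was 0.533 without the 2 farthest libraries. In WT soleus the pair did not go together, with r = 0.08 and rho = 0.05 (exact permutation tests, adjusted p = 0.954 and 0.981, n = 9). Arrdc4 ran the other way in ∆Ig3-MuSK soleus, with r = -0.864 against Arrdc2 and -0.886 against Arrdc3 (exact permutation tests, adjusted p = 0.0132 for both, n = 9). Spearman's rho for these pairs was -0.883 and -0.817 (exact permutation tests, adjusted p = 0.0308 and 0.0718). Without the 2 farthest libraries r was -0.644 and -0.941. By rank alone, Gm15441 and Arrdc2 in WT TA (rho = 0.867, exact permutation test, adjusted p = 0.0338, n = 9) and Arrdc1 and Arrdc4 in WT soleus (rho = -0.900, exact permutation test, adjusted p = 0.0304, n = 9) also passed.

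The labels carry a number for each library, and 8 numbers of each genotype appear on both a TA and a soleus library. The labels do not say that such a pair came from the same animal. The paper's legend gives a single muscle per animal and does not say whether that holds across TA and soleus. Each gene was correlated between TA and soleus over these pairs, 12 relations in all. Arrdc2 in the mutants gave r = 0.905 (exact permutation test, adjusted p = 0.00714, n = 8) and rho = 0.810 (exact permutation test, adjusted p = 0.131, n = 8). Arrdc3 in the mutants gave r = 0.843 (exact permutation test, adjusted p = 0.0402, n = 8) and rho = 0.833 (exact permutation test, adjusted p = 0.131, n = 8). Without the 2 pairs farthest from the median, r was 0.770 for Arrdc2 and 0.871 for Arrdc3. The same mutant number had the highest Arrdc2 in both muscles, with 179.6 CPM in TA and 59.1 CPM in soleus. Its TA library also had the lowest Txnip of its group, at 190.4 CPM, while its soleus library was at the group's median of 573 CPM. That pair was then left out, a choice made after the values were seen, so the values without it are descriptions with no test. Without that pair Arrdc2 gave r = 0.798 and rho = 0.714, and Arrdc3 gave r = 0.785 and rho = 0.75 (n = 7). Txnip in the mutants gave r = 0.406 and rho = 0.762 (exact permutation tests, adjusted p = 0.635 and 0.1375, n = 8). Without that pair Txnip gave r = 0.826 and rho = 0.857 (n = 7), so its r depended on that pair. In WT, Arrdc2 gave r = 0.22 and Txnip r = 0.00 (exact permutation tests, adjusted p = 0.736 and 0.995, n = 8). None of the other 10 relations passed after adjustment.

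**Figure D4:**
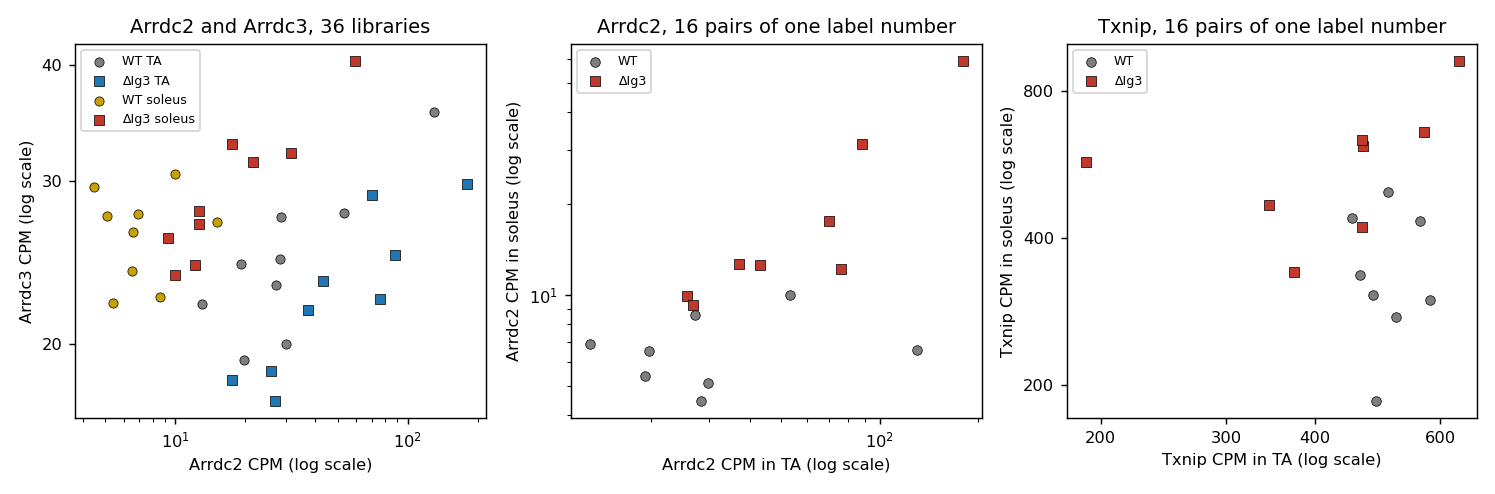
Left, Arrdc3 CPM against Arrdc2 CPM in the 36 libraries; middle and right, soleus CPM against TA CPM of Arrdc2 and of Txnip for 8 WT (grey) and 8 ∆Ig3-MuSK (red) pairs of libraries with a shared label number, all on log axes. The mutant pairs of Arrdc2 run along a line that ends at 179.6 CPM in TA and 59.1 CPM in soleus, and the WT pairs do not.

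The genes whose within-group variation was most like that of Txnip and Arrdc2 were found by Pearson's r over the 36 libraries after the group means were taken out. For Txnip, Gm15441 aside (r = 0.96), they were Armt1 (0.71), Flvcr1 (0.68), a heme exporter, Angptl4 (0.67), an inhibitor of lipoprotein lipase, Klf10 (0.65), a zinc-finger transcription factor, and Zdhhc6 (0.63), a palmitoyltransferase. For Arrdc2 they were Slc10a6 (0.90), a steroid sulfate transporter, the glutamine synthetase pseudogene Glns-ps1 (0.85), Per1 (0.85), a clock gene, Bcl2l1 (0.84), an inhibitor of apoptosis, and Glul (0.82), glutamine synthetase. Glns-ps1 is a near copy of Glul, and reads may have been split between them. These values are descriptions: over all 20835 other genes, the middle 90% had r between -0.36 and 0.36 with Txnip and between -0.36 and 0.38 with Arrdc2. Without the 3 libraries where Arrdc2 stood apart, a choice made after the values were seen, the same 5 genes were still the 5 most like it, with r between 0.70 and 0.82. Arrdc3 then gave 0.62, against 0.79 over all 36.

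Most genes of a list drawn up for the response to glucocorticoids varied with Arrdc2. Of the 14 genes listed, 12 had a positive r with Arrdc2 and the median r was 0.51, against a median of -0.01 over all genes. Those highest were Per1 (0.85), which is also a clock gene, Tsc22d3 (0.80), Ddit4 (0.74) and Klf15 (0.72). Those lowest were Hsd11b1 (-0.17), Pdk4 (-0.01), Nr3c1 (0.01) and Cdkn1a (0.05). The median was 0.39 without the 3 libraries. With Txnip the median r was -0.09. Between genotypes in soleus, 1 of the 14 was called by edgeR, against 0.952% of all genes. It was Klf9, a transcription factor, which rose by 0.30 on the log2 scale (SE 0.07, adjusted p = 0.0405, edgeR). DESeq2 called 2, limma-voom called 3 as higher and 1 as lower, and with a replicate block none was called. The call of Klf9 held in 5 of the 18 fits with a library left out. At an unadjusted p under 0.05, 6 genes of the list were higher and 1 was lower in mutant soleus, where 8.48% of all genes were higher and 10.1% lower. The median log2 difference of the 14 genes was 0.31, against 0.00 over all genes. In TA none was called by edgeR, DESeq2 or limma-voom, and 5 had an unadjusted p under 0.05, 3 of them higher and 2 lower (12.2% and 12% of all genes). The gene with the smallest p in TA was Sgk1, at -0.36 (SE 0.11, adjusted p = 0.145, edgeR).

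The circadian clock genes moved with genotype in the same libraries. Of 16 genes, 9 were called as higher and 2 as lower in mutant soleus, where 0.365% of all genes were called as higher and 0.586% as lower. The largest differences were in Ciart (1.65, SE 0.29, adjusted p = 0.0164, edgeR), Per2 (1.42, SE 0.31, adjusted p = 0.0339, edgeR) and Dbp (1.23, SE 0.19, adjusted p = 0.0135, edgeR) on the log2 scale. Per3, Hlf, Tef, Nr1d2, Bhlhe41 and Cry2 rose by 0.44 to 0.94 on the log2 scale, and Npas2 and Arntl, on the opposite arm of the clock, fell by 1.18 and 0.78. In TA edgeR called Dbp alone (0.90, SE 0.11, adjusted p = 0.00120), and at an unadjusted p under 0.05 9 of the 16 were higher and 3 lower, against 12.2% and 12% of all genes. DESeq2 called 6 of the 16 as higher and 2 as lower in TA, limma-voom called 5 and 2, and with a replicate block none was called. For the difference between the muscles in the genotype effect, edgeR called none of the 16 and DESeq2 called 1, Bhlhe41. Over the 10171 genes with an adjusted p there, DESeq2 called 578 above 0 and 277 below. With 1 library left out, between 5 (without WT soleus replicate 5) and 12 (without ∆Ig3-MuSK soleus replicate 6) of the 16 were called in soleus. Npas2, Nr1d2, Per3, Dbp and Ciart were called in all 18 such fits. With Arrdc2 the clock genes had a median r of 0.43, and with Txnip of -0.06. The list did not vary with Arrdc2 as a whole: 11 of the 16 had a positive r with it. Npas2 (-0.53), Nr1d1 (-0.50), Arntl (-0.48), Bhlhe40 (-0.30) and Clock (-0.23) had a negative one. The hour at which the muscles were taken is not given in the sources used here, and the part of the clock or of glucocorticoids in the differences of Arrdc2 was not tested.

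**Figure D5:**
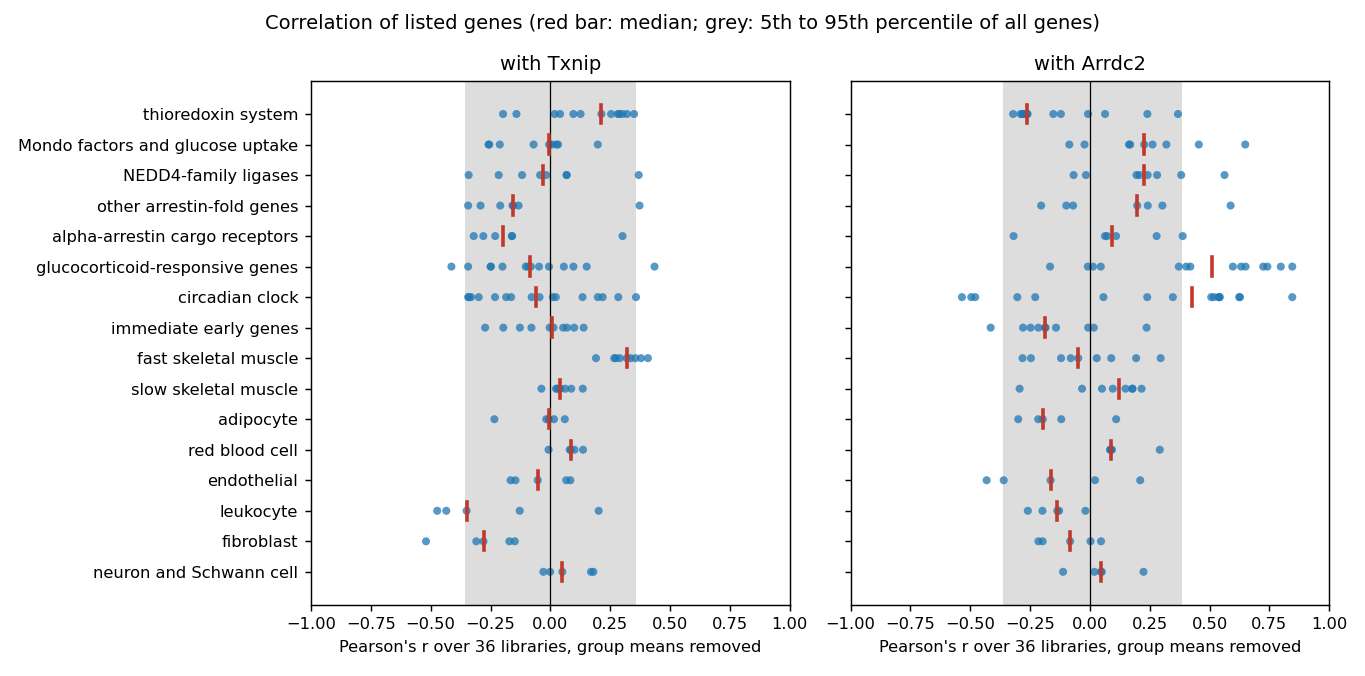
Pearson's r of each listed gene with Txnip (left) and Arrdc2 (right) over 36 libraries after the group means were taken out, with the median of each list as a red bar and the 5th to 95th percentile of all genes in grey. The medians of the glucocorticoid-responsive and clock genes lie beyond the grey band with Arrdc2 (0.51 and 0.43) and within it with Txnip (-0.09 and -0.06). Single genes of these lists, Pdk4 (0.435), Ddit4 (-0.413) and Bhlhe40 (0.358), lie outside the band with Txnip.

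No partner or regulator of the alpha-arrestins listed here passed the limits between genotypes in edgeR, where 0.952% of all genes in soleus and 0.0149% in TA did. Of 13 genes of the thioredoxin system, none was called in either muscle (edgeR). In soleus 1 was higher and none lower at an unadjusted p under 0.05 (8.48% and 10.1% of all genes). The smallest p was that of Prdx6, a peroxiredoxin, at 0.07 (SE 0.03). In TA 1 was higher and 6 were lower at an unadjusted p under 0.05, where 2402 of 20075 genes were lower, and the median log2 difference was -0.16. The smallest p there was that of Glrx, a glutaredoxin, at -0.33 (SE 0.11, adjusted p = 0.156, edgeR). With Txnip, 11 of the 13 had a positive r (median 0.21). Of 9 genes of the Mondo factors and glucose uptake, none was called in either muscle (edgeR), and at an unadjusted p under 0.05 1 was higher and 1 lower in soleus (8.48% and 10.1% of all genes) and 3 higher and 1 lower in TA (12.2% and 12% of all genes). The smallest p in soleus was that of Mlx, the shared partner of the Mondo factors, at 0.12 (SE 0.04, adjusted p = 0.109, edgeR), and in TA that of Insr, the insulin receptor, at 0.27 (SE 0.09, adjusted p = 0.151, edgeR).

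Of 8 tested genes of the NEDD4-family ligases, none was called in either muscle (edgeR), with 1 higher and 1 lower in soleus and 2 higher in TA at an unadjusted p under 0.05. Over all genes, 8.48% were higher and 10.1% lower in soleus at that p, and 12.2% and 12% in TA. Wwp1 had the smallest p in soleus (0.21, SE 0.07, adjusted p = 0.112, edgeR) and Hecw2 in TA (0.79, SE 0.24, adjusted p = 0.145, edgeR). Of 7 tested genes of other arrestin-fold proteins, none was called in either muscle (edgeR), and 1 was higher in TA at an unadjusted p under 0.05. It was Rgp1, at 0.18 (SE 0.07) in TA and -0.07 (SE 0.03) in soleus. Of 5 tested cargo receptors, none was called (edgeR), and 1, Notch1, was higher in TA at an unadjusted p under 0.05, at 0.37 (SE 0.17). The smallest p in soleus was that of the metal transporter Slc11a2, at -0.08 (SE 0.04). DESeq2 and limma-voom also called 0 genes of these 5 groups of partners in either muscle, and a fit over all 36 libraries called 1 thioredoxin, 1 glucose uptake and 1 ligase gene in TA. For the difference between the muscles in the genotype effect, DESeq2 called 3 of the 9 Mondo and glucose uptake genes, Mlx, Insr and Hk1, 1 of them above 0 and 2 below, and edgeR called none. Of the 10171 genes that DESeq2 gave an adjusted p there, it called 578 above 0 and 277 below. Of 10 immediate early genes, 1 was called in soleus, Egr3, a zinc-finger transcription factor, which fell by 1.56 on the log2 scale (SE 0.38, adjusted p = 0.0459, edgeR) and was called in 4 of 18 fits with a library left out. DESeq2 and limma-voom each called 3 of the 10 as lower, and with a replicate block none was called. All 10 were below 0 there, 5 of them at an unadjusted p under 0.05. Over all genes in soleus 10.1% were lower at that p and 0.586% were called as lower. In TA none of the 10 was called by edgeR, DESeq2 or limma-voom. At an unadjusted p under 0.05, 1 was lower in TA (Atf3, at -0.73, SE 0.27) and none higher, where 12% of all genes were lower.

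Markers of fiber type and of other cells were read beside these values. With Txnip, all 9 fast-fiber genes had a positive r (median 0.32), and 4 of 5 leukocyte genes and 5 of 5 fibroblast genes a negative one (medians -0.35 and -0.28). In soleus, where 8.48% of all genes were higher at an unadjusted p under 0.05, 1 of the 9 fast-fiber genes was higher at that p. The 9 fast-fiber genes were all above 0 in the mutant (median log2 difference 0.23). Their summed CPM ranged from 19705 to 42887 in WT soleus and from 27997 to 40025 in mutant soleus, with medians of 26031 and 32902. With Arrdc2, the fast-fiber, slow-fiber, endothelial, red blood cell, leukocyte, fibroblast, adipocyte and neuron and Schwann cell lists had medians of r between -0.20 and 0.12. Of these marker genes edgeR called 1 between genotypes, where 0.952% of all genes in soleus and 0.0149% in TA were called. It was Syt1, a synaptic vesicle protein, which rose by 0.84 in mutant soleus (SE 0.19, adjusted p = 0.0390, edgeR). Syt1 was called in 6 of 18 fits with a library left out. In soleus DESeq2 and limma-voom also called Snap25, a synaptic protein, as higher and Kdr, an endothelial receptor, and Col1a1, a collagen, as lower. The fast-fiber gene Atp2a1 was called as higher by limma-voom, and Col3a1 as lower with a replicate block. In TA DESeq2 called the T cell gene Cd3e as lower. In the other marker lists the smallest p in soleus was that of Atp2a1 (0.23), Casq2 (-0.15), Cidec (0.67), Hbb-bs (0.35), Kdr (-0.42), Csf1r (-0.37) and Col1a1 (-0.97) on the log2 scale. In TA it was that of Pvalb (-0.22), Atp2a2 (0.18), Cfd (-0.45), Hba-a1 (0.07), Emcn (-0.21), Cd3e (-0.66) and Dcn (-0.24) in the lists other than neuron and Schwann cell. The part of fiber type or of other cells in the differences of Txnip was not tested.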

How the data were processed

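Non-stranded RNA-seq libraries of TA and soleus from WT and ∆Ig3-MuSK mice were used. The authors trimmed reads with Trimmomatic, aligned them to mm10 with GSNAP, counted reads per gene with htseq-count, and deposited the whole-number counts, without normalization, in a table of Ensembl IDs for each muscle. The annotation release and counting mode are not given in the sources used here. The groups came from the labels. The 6 genes and all gene lists were chosen with earlier results of these data known. Symbols matched 51633 of 51912 IDs.

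Counts were fitted in R 4.3.3 with edgeR 4.0.16 (filterByExpr with a minimum count of 10 and a minimum total count of 15, TMM factors, glmQLFit and glmQLFTest, no covariates), within each pair of groups and over 36 libraries for the interaction. A call needs a Benjamini-Hochberg adjusted p under 0.05 and a 1.2-fold change. CPM and log2 CPM (prior count 2) used TMM factors over the 36 libraries. Correlations were tested by exact permutation, 2-sided. WT soleus against WT TA was planned as a test for the 6 genes and the Gm15441 share, and is given as one for Arrdc1, Arrdc3 and Arrdc4 only. With 9 libraries per group, p-values reflect the spread between these libraries, which includes counting error. That error is small for genes with many counts. It is a larger part of the spread at low counts, such as the 92 to 170 of Arrdc1 in WT soleus. Fits were tested on simulated counts. Named genes are the 6 members, called genes of each list or else the gene with the smallest p in each muscle, the 5 genes most correlated with Txnip and with Arrdc2, and Musk. Arrdc5, the further list genes named for their r and those called by other fits only were added once their values had been seen. Other fits tried were limma-voom (limma 3.58.1) with sample weights, DESeq2 1.42.0, RLE factors, no count filter, a filter of 10 counts in each library, a single fit, replicate blocks and each library left out. The table columns of other samples numbered 0. Promoter windows are from RefSeq. Proteins were not analysed here.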

Additional observations from a re-analysis of the deposited data

Results flagged for a closer look

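In 5 of 28 sets of 9 libraries (the CPM of each gene and the share of Gm15441 in the summed Txnip and Gm15441 counts, in each group), a library stood apart by Dixon's gap test. The limit used flags about 1 in 20 sets of normally distributed values. The test was run on CPM and not on log2 CPM, and Arrdc2 CPM was skewed, with a mean of 38.7 and a median of 28.3 in WT TA. The rate by chance in these sets is therefore not known. Arrdc2 accounted for 3 of the 5. It was 129.7 CPM in WT TA replicate 6, where the next library was at 53.0. It was 179.57 CPM in ∆Ig3-MuSK TA replicate 5 and 59.136 CPM in ∆Ig3-MuSK soleus replicate 4, where the next libraries were at 88.5 and 31.4. The pair from the mutants carries the same label number. The Gm15441 share was 21.073% in ∆Ig3-MuSK TA replicate 3, with the next lowest library at 23.5%. It was 20.809% in ∆Ig3-MuSK soleus replicate 2, with the next lowest also at 23.5%. Both of these libraries also carry the same label number. These shared numbers were noticed after the values were seen, and no explanation of these libraries was tested.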

How the results depend on the processing

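The log2 differences of the 6 genes kept their direction in WT soleus against WT TA under the 9 other fits and the 18 fits with a library left out. Arrdc1 was called in all of these and Arrdc3 in none. Txnip and Arrdc2, as descriptions, were past the same limits in all. Gm15441 was not past them without a filter on low counts (-0.31) and in the single fit over 36 libraries (-0.32). With a library left out it gave -0.39 to -0.24 and was past them in only 7 of the 18 fits. Arrdc4 passed the 1.2-fold limit with DESeq2 (-0.27) and with RLE factors (-0.27). With a library left out it gave -0.32 to -0.21 and was called in 4 of the 18 fits. The cause was not tested. Between genotypes, each member's difference moved by less than its SD between single libraries under every alternative run. Leaving 1 library out moves a group mean by little of that SD, so staying under it does not show a difference to be stable. With a library left out, Arrdc2 in TA gave 0.31 to 1.196 and Arrdc1 in soleus -0.02 to 0.08. The difference of the 2 muscles in the Gm15441 share was 1.55 to 2.20 percentage points with a library left out.

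The number of genes called between genotypes depended on the fit, which sets the background of the lists. In soleus 185 genes were called, 495 with DESeq2, 653 with limma-voom and 312 in the single fit, and 22 (without WT soleus replicate 5) to 602 (without WT soleus replicate 1) with a library left out. In TA 3 genes were called, 256 with DESeq2, 150 with limma-voom, 10 without a filter on low counts, 692 in the single fit, and 3 to 9 with a library left out. For the interaction 0 of 20841 genes were called by edgeR, where 5193 had an unadjusted p under 0.05. DESeq2 called 855, and leaving out a library gave 0 to 1300, the most without WT TA replicate 9. The cause was not tested.

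With the replicate number as a block, 347 genes were called in soleus and 0 in TA. Replicate numbers share only a number: deviations from the group means had r over 0.1 in 3 of 9 pairs in each muscle. For TA and soleus libraries of a shared label number, r was over 0.1 in 4 of 8 WT and 6 of 8 mutant pairs, so these too were not taken as pairs, and 3 and 2 of 8 libraries correlated best with their own number. A limma-voom replicate block by label number called 9 genes in the interaction. In WT soleus against WT TA the replicate block by label number, on 8 pairs, left the members' calls as they were. The same 8 pairs without a block were added after the values were seen and also changed no member's call.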
